A study of Mus musculus with 12 samples.

Results

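Neuropeptide Y and adrenergic signalling in the left ventricle were followed through 6 genes: Npy, Adrb1, Adra1a, Adra1b, Grk5 and Maoa. The members were all probe sets that the platform annotation assigned to 1 of these symbols. This gave 6 probe sets of 45101 on the array, covering 4 of the 6 genes, of 18193 genes with a named probe set. Npy and Adra1b had 1 probe set each, and Grk5 and Maoa had 2 each. No probe set carried the symbol Adrb1 or Adra1a in the annotation used, so both receptors were not analysed here. The genes had been picked because of how they differed between these same arrays. Their differences are therefore given as a description, without a test.

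Sympathetic nerve endings in the heart release noradrenaline, and neuropeptide Y is stored and released with it. Noradrenaline acts on beta-adrenergic receptors, which raise cyclic AMP through the G protein Gs and adenylyl cyclase and so activate protein kinase A, and on alpha-1-adrenergic receptors, which activate phospholipase C and protein kinase C through Gq. G protein-coupled receptor kinases, of which Grk5 is one, phosphorylate active receptors so that arrestins can bind and end the signal. Monoamine oxidases break down noradrenaline after uptake.

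Each of 12 male C57BL/6 mice gave 1 left ventricle, which was hybridised to an Affymetrix mouse expression array of its own. The TG mice carry ATF6-MER, in which the stress-response transcription factor ATF6 is joined to a mutated estrogen receptor domain of the mouse, so that tamoxifen can activate it. With 3 mice each, the groups were TG tamoxifen mice, TG vehicle mice, NTG tamoxifen mice and NTG vehicle mice, where NTG mice are littermates without the transgene. The mice were about 30 weeks old. The sources used here do not give the promoter that drives the transgene, or the dose and duration of tamoxifen. NTG tamoxifen mice carry the drug without the transgene, and TG vehicle mice the transgene without the drug.

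Several arrays stood apart or had conflicting labels. The labels make TG tamoxifen 1 older, at 40 weeks, and TG vehicle 3 is titled vehicle but has tamoxifen in its treatment field. The groups were taken from the titles. The probe set for Esr1, the estrogen receptor gene, had log2 intensities of 16.66 to 18.25 on the 6 TG arrays and 17.72 on the array labelled NTG tamoxifen 1, against 10.88 or less on the other NTG arrays. Hspa5, an endoplasmic reticulum chaperone, had a log2 intensity of 18.05 on the array labelled NTG tamoxifen 1, against 15.65 and 15.49 on NTG tamoxifen 2 and 3. This array went against its label, and values without it are given for the members and for several other genes. For beta-actin, the 3' over 5' signal ratio, a measure of RNA quality, was 1.75 to 1.88 in TG tamoxifen mice, 1.32 to 1.68 in TG vehicle mice, 1.78 to 1.97 in NTG tamoxifen mice and 2.12 to 2.43 in NTG vehicle mice. Array medians ran from 648 to 834, and the 8 cardiomyocyte markers lay at mean percentiles of 98.6 or above. In bulk tissue, fewer cells of a type and less RNA per cell cannot be told apart.

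The 250 bases upstream of the RefSeq start are printed for Npy, the member with the largest differences, and for Grk5. The brighter probe set of Grk5 was highest in TG tamoxifen. Both windows are given 5' to 3' on the gene's strand from mouse build GRCm38.p6. Npy lies on the plus strand of chromosome 6 with this window at chr6:49822460-49822709, and Grk5 on the plus strand of chromosome 19 with the window at chr19:60889499-60889748. ATF6 is known to bind the endoplasmic reticulum stress element, in which CCAAT is followed by CCACG after a spacer. Matches to CCAAT or to CCACG on either strand are in capitals, and TGACG, a core of cyclic AMP response elements, was searched in the same way.
Npy: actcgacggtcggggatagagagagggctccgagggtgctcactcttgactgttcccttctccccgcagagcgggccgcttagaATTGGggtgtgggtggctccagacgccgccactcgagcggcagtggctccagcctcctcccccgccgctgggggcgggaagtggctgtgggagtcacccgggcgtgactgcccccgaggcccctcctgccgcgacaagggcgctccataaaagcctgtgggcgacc
Grk5: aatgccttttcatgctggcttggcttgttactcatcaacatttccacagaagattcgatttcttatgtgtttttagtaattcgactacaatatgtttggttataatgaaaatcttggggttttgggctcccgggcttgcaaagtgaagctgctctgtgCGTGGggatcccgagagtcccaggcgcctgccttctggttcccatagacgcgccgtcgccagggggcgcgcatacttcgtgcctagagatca
Npy held 1 CCAAT, read on the opposite strand as ATTGG, 166 bases before the start. Grk5 held 1 CCACG, read on the opposite strand as CGTGG, 92 bases before the start. Over 32851 RefSeq promoter windows of this length, 33.8% held CCAAT, 28.3% held CCACG and 17.8% held TGACG on either strand. TGACG was in neither of the windows of Npy and Grk5. The whole element, CCAAT and CCACG with 9 bases between them, was in 0.113% of the windows and in none of those of Npy, Grk5, Maoa and the 2 starts of Adra1b. A match in these letters is a description of the sequence and does not show a binding site.

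Npy, the peptide transmitter, differed most between the groups. Its probe set (1419127_at) had deposited intensities of 597, 238 and 1505 in TG tamoxifen mice, 1561, 1700 and 1501 in TG vehicle mice, 1668, 1403 and 1451 in NTG tamoxifen mice, and 268, 299 and 379 in NTG vehicle mice. TG vehicle and NTG tamoxifen were high on every array, NTG vehicle was low on every array, and TG tamoxifen spread over the whole range. On the quantile-normalised log2 scale the group means were 9.38 ± 1.30 in TG tamoxifen mice, 10.64 ± 0.05 in TG vehicle mice, 10.49 ± 0.15 in NTG tamoxifen mice and 8.42 ± 0.24 in NTG vehicle mice (SD, n = 3 each). Among all probe sets of an array, Npy stood between the percentiles 66.5 and 67.8 in TG vehicle and between 28.5 and 34.5 in NTG vehicle.

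Npy in NTG tamoxifen exceeded NTG vehicle by 2.07 ± 0.47 (log2 difference ± SE), or 4.21-fold, and the arrays did not overlap, as was so for 13.2% of all 11166 genes tested in that direction. TG vehicle exceeded NTG vehicle by 2.21 ± 0.47, or 4.64-fold, again without overlap, which held for 15.4% of genes in that direction. Both differences rest on the same 3 NTG vehicle arrays. Without the array labelled NTG tamoxifen 1 the first was 1.99. In TG tamoxifen against TG vehicle Npy stood at -1.25 ± 0.47 with overlapping arrays, and at -0.58 without TG tamoxifen 2. In TG tamoxifen against NTG tamoxifen it stood at -1.11 ± 0.47, also with overlap, at -0.44 without TG tamoxifen 2 and at -1.03 without the array labelled NTG tamoxifen 1. The tamoxifen effects in TG and NTG had opposite signs and differed by -3.33 ± 0.66, or by -2.65 without TG tamoxifen 2. In the order of the 4 levels, TG vehicle, NTG tamoxifen, TG tamoxifen and NTG vehicle, no neighbouring pair was free of overlap.

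RNA quality also moved between these groups. NTG vehicle, the group with low Npy, had the highest beta-actin ratio, and TG vehicle the lowest. With that ratio as a covariate, Npy differed by 2.44 ± 0.70 in NTG tamoxifen against NTG vehicle and by 3.04 ± 1.24 in TG vehicle against NTG vehicle. Npy was called in neither comparison with this covariate. The ratio of NTG vehicle did not overlap with that of either group, so RNA quality and group cannot be told apart here.

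**Figure D1:**
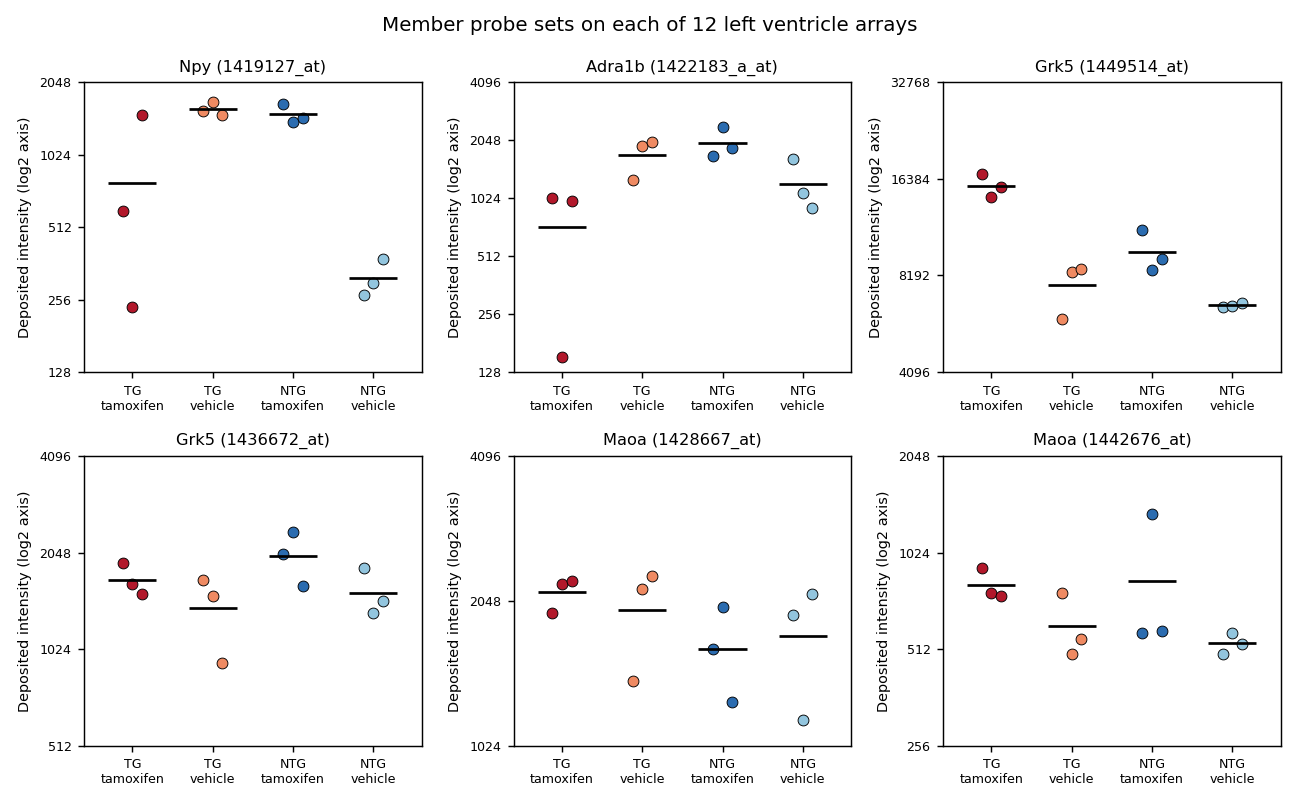
Deposited intensity (log2 axis) of each of the 6 member probe sets on the 12 arrays, with 1 point per mouse and a line at the arithmetic mean of the 3 mice of a group. Npy in NTG vehicle stays at 268 to 379, while TG vehicle lies at 1501 to 1700. The brighter Grk5 probe set lies at 14437 or more in TG tamoxifen and at 11359.5 or less elsewhere.

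Of the receptors, Adra1b, which couples to Gq, was measured by 1 probe set (1422183_a_at). Its intensities were 1032, 153 and 994 in TG tamoxifen mice, 1270, 1911 and 1997 in TG vehicle mice, 1695, 2409 and 1861 in NTG tamoxifen mice, and 1636, 1096 and 911 in NTG vehicle mice. TG tamoxifen lay below TG vehicle and below NTG tamoxifen on every array, with TG tamoxifen 2 far below the others, and overlapped with NTG vehicle. The log2 difference was -1.52 ± 0.58 in TG tamoxifen against TG vehicle and -1.68 ± 0.58 in TG tamoxifen against NTG tamoxifen. These 2 comparisons share the TG tamoxifen arrays. Absence of overlap in the lower direction held for 24.4% of all genes in the first comparison and for 27% in the second. Without TG tamoxifen 2 the differences were -0.62 and -0.78, so much of their size rests on 1 mouse. Without the array labelled NTG tamoxifen 1 the second was -1.78. Adra1b in NTG tamoxifen against NTG vehicle stood at 0.65 ± 0.58 and in TG vehicle against NTG vehicle at 0.49 ± 0.58, both with overlapping arrays.

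Grk5, the receptor kinase, had its highest level in TG tamoxifen through its brighter probe set. The brighter probe set (1449514_at) had intensities of 16919, 14437 and 15446 in TG tamoxifen mice, 5995, 8423 and 8590.5 in TG vehicle mice, 11359.5, 8548 and 9205 in NTG tamoxifen mice, and 6515, 6572 and 6739 in NTG vehicle mice. All 3 TG tamoxifen arrays stood above all 9 others, and the share of all genes for which this held was not counted. Of the NTG tamoxifen arrays the one labelled 1 was the highest. The group means were 13.89 ± 0.11 log2 units in TG tamoxifen mice, 12.91 ± 0.30 in TG vehicle mice, 13.26 ± 0.22 in NTG tamoxifen mice and 12.66 ± 0.03 in NTG vehicle mice (SD, n = 3 each).

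Grk5 in TG tamoxifen exceeded TG vehicle by 0.97 ± 0.18 (log2 difference ± SE), or 1.96-fold, and NTG tamoxifen by 0.63 ± 0.18, or 1.55-fold (0.75 without the array labelled NTG tamoxifen 1). Arrays did not overlap in either comparison, which in the higher direction held for 19.8% of all genes in the first and for 24% in the second. NTG tamoxifen exceeded NTG vehicle by 0.60 ± 0.18, or 1.51-fold, and by 0.47 without the array labelled NTG tamoxifen 1. The arrays did not overlap there, as was so for 13.2% of all genes in the higher direction. The tamoxifen effect in TG was larger than that in NTG by 0.38 ± 0.26. TG vehicle stood 0.25 ± 0.18 above NTG vehicle, with overlapping arrays, and at -0.22 ± 0.46 with the beta-actin ratio as a covariate. The dimmer Grk5 probe set (1436672_at) ran from 1521 to 1904 in TG tamoxifen and from 929 to 1687 in TG vehicle. It differed by 0.43 ± 0.28 between these groups and by -0.11 ± 0.28 in TG tamoxifen against NTG tamoxifen, and its arrays overlapped in every comparison, so the 2 probe sets of Grk5 did not show the same separation.

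Maoa, which encodes a monoamine oxidase of the outer mitochondrial membrane, differed little. Its brighter probe set (1428667_at) had 1930.3, 2219 and 2251 in TG tamoxifen mice, 1397, 2166 and 2312 in TG vehicle mice, 1626, 1989 and 1263 in NTG tamoxifen mice, and 1916, 1158 and 2118 in NTG vehicle mice. On the deposited scale every pair of groups overlapped. After normalisation TG tamoxifen no longer overlapped with NTG tamoxifen, which in the higher direction held for 24% of all genes, and their log2 difference was 0.55 ± 0.27. The other differences were 0.22 ± 0.27 in TG tamoxifen against TG vehicle, -0.13 ± 0.27 in NTG tamoxifen against NTG vehicle and 0.20 ± 0.27 in TG vehicle against NTG vehicle. The second probe set (1442676_at) lay just below the filter on dim probe sets, with a mean of 9.41 log2 units. It had 914, 766 and 748 in TG tamoxifen mice, 766, 496 and 552 in TG vehicle mice, 576, 1348 and 585 in NTG tamoxifen mice, and 494, 575 and 533 in NTG vehicle mice. It stood 0.58 ± 0.35 higher in TG tamoxifen than in TG vehicle.

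**Figure D2:**
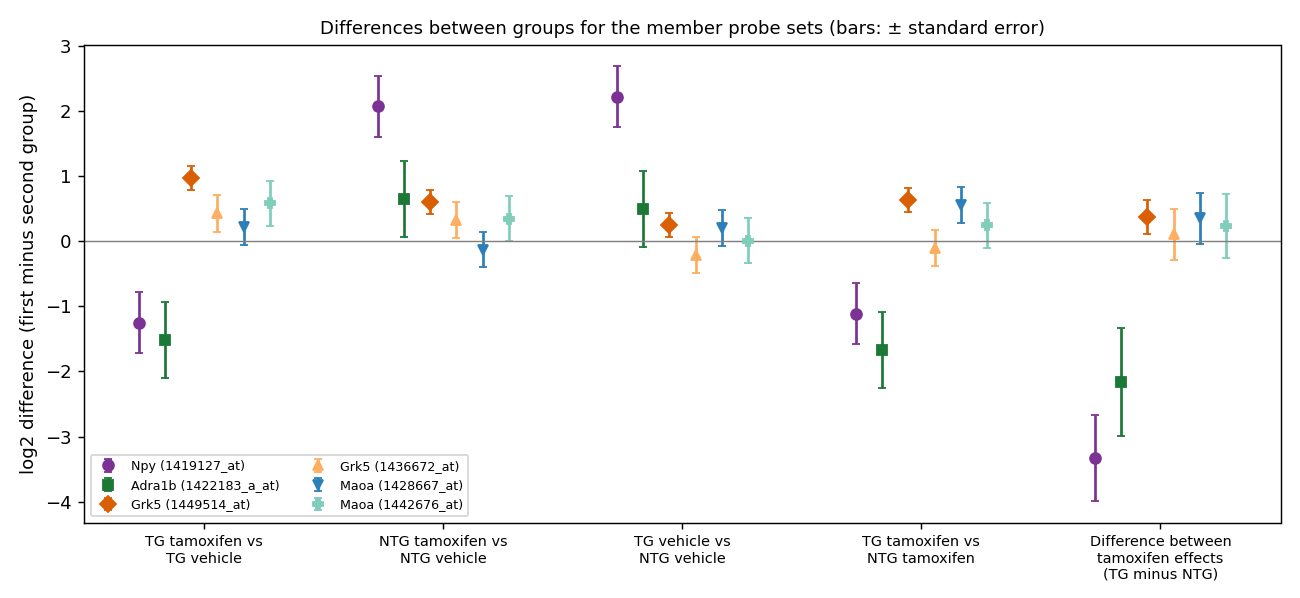
Log2 difference (first minus second group) with its standard error for the 6 member probe sets in each of 5 comparisons. The last column is the TG minus the NTG effect of tamoxifen, where Npy stands at -3.33. Grk5 (1449514_at) stands at 0.97 in TG tamoxifen against TG vehicle.

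The 4 genes were read against all genes tested at an adjusted p under 0.05 in the same limma fit. Grk5 passed in TG tamoxifen against TG vehicle, where 24.8% of all genes did. Npy passed in NTG tamoxifen against NTG vehicle and in TG vehicle against NTG vehicle, where 4.32% and 3.63% of all genes did. Grk5 and Adra1b passed in TG tamoxifen against NTG tamoxifen, where 39.5% did. Npy passed for the difference between the tamoxifen effects, where 14.3% did. The calls of Npy in NTG tamoxifen and in TG vehicle, each against NTG vehicle, were lost without any 1 NTG vehicle array, and both calls in TG tamoxifen against NTG tamoxifen were lost without NTG tamoxifen 2 or 3. The genes were chosen from these comparisons, so nothing is read from these counts.

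The remaining genes of neuropeptide Y signalling were mostly dim. Of 8 such genes (Npy1r, Npy2r, Npy4r, Npy5r, Npy6r, Pyy, Ppy and Dpp4), all with a named probe set, 2 passed the filter on dim probe sets, and 0 of these 2 passed the limma threshold in any of the 5 comparisons. At an unadjusted p under 0.05 they numbered 0 in TG tamoxifen against TG vehicle, 1 in NTG tamoxifen against NTG vehicle and 2 for the difference between the tamoxifen effects. Npy4r, a receptor that prefers pancreatic polypeptide, differed by 0.89 ± 0.31 in NTG tamoxifen against NTG vehicle (adjusted p = 0.114) and by -0.46 ± 0.31 in TG tamoxifen against TG vehicle (adjusted p = 0.29). Dpp4, a peptidase that trims neuropeptide Y, differed by 0.71 ± 0.41 (adjusted p = 0.324) and by -0.57 ± 0.41 (adjusted p = 0.338) in the same comparisons. Npy1r, the receptor through which neuropeptide Y constricts vessels, ran from 670 to 809 in TG tamoxifen mice, 488 to 785 in TG vehicle mice, 207 to 774 in NTG tamoxifen mice, and 296 to 697 in NTG vehicle mice, and Npy2r stayed at 355 or below on every array. Of 6 further adrenergic receptors only Adra2c had a named probe set, and it lay below the filter at 63 to 1052.

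Outside the 6 members, 172 genes of 9 signalling lists were followed, of which 154 had a named probe set and 111 were tested. In TG tamoxifen against TG vehicle 7 rose and 15 fell, or 19.8% against 24.8% of all genes. In NTG tamoxifen against NTG vehicle 1 rose and 6 fell, or 6.31% against 4.32% of all genes. In TG vehicle against NTG vehicle 1 was higher and 2 were lower, or 2.7% against 3.63%. In TG tamoxifen against NTG tamoxifen 11 were higher and 21 lower, or 28.8% against 39.5%. The median log2 difference over all genes tested was -0.07 in TG tamoxifen against TG vehicle, and with median centring 0.03, when 14 of these genes rose and 11 fell. With TG vehicle 3 grouped by its treatment field, limma called 0 of the 111 in TG tamoxifen against TG vehicle (19 at an unadjusted p under 0.05) and 0 of all genes. With the beta-actin ratio as a covariate it called 0 of the 111 (25 unadjusted) and 5 of all genes.

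Of 11 tested genes of catecholamine synthesis, uptake and breakdown, 5 fell and 0 rose in TG tamoxifen against TG vehicle, or 45.5% against 24.8% of all genes. In NTG tamoxifen against NTG vehicle 2 fell and 0 rose, or 18.2% against 4.32% of all genes. Between TG tamoxifen and NTG tamoxifen 0 of the 11 were called, and 0 had an unadjusted p under 0.05, where 39.5% of all genes were called. For the difference between the tamoxifen effects 0 of the 11 were called, against 14.3% of all genes. Maob, the second monoamine oxidase, had intensities of 4734, 4821 and 5686 in TG tamoxifen mice, 21688, 15446 and 16418 in TG vehicle mice, 3025, 6055 and 3796 in NTG tamoxifen mice, and 13587, 12563 and 10310 in NTG vehicle mice. Both tamoxifen groups were low and both vehicle groups high, with no overlap. Maob fell by 1.79 ± 0.25 on the log2 scale in TG tamoxifen (adjusted p = 0.00175) and by 1.55 ± 0.25 in NTG tamoxifen (adjusted p = 0.0151), each against its vehicle group. Maoa stood at 0.22 and -0.13 in these comparisons. Aldh2, which oxidises the aldehydes that monoamine oxidases form, fell by 1.10 ± 0.22 in TG tamoxifen (adjusted p = 0.00587) and by 1.36 ± 0.22 in NTG tamoxifen (adjusted p = 0.0151), through its brightest probe set. Its 4 other probe sets stood at -0.99, -0.38, -0.37 and 0.52 in TG and at -0.76, -0.21, 0.60 and -0.60 in NTG, in the same order. With the mean of its probe sets Aldh2 stood at -0.46 in TG and -0.47 in NTG, and neither was called. The NTG calls of Maob and Aldh2 were lost without NTG tamoxifen 3 or without any 1 NTG vehicle array, with adjusted p up to 0.0776 and 0.0759. The TG calls of both held without any 1 of the 12 arrays.

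Rnls, which encodes renalase, a flavoprotein first described as degrading catecholamines, had 1444, 1347 and 1530 in TG tamoxifen against 2768, 2425 and 3199 in TG vehicle. It fell by 0.87 ± 0.16 (adjusted p = 0.00481), a call that held without any 1 array. Rnls had 1611, 1402 and 1700 in NTG tamoxifen, overlapping with TG tamoxifen, and 1881, 1739 and 1705 in NTG vehicle. It was also called higher in TG vehicle than in NTG vehicle, a call that 10 of 12 single omissions ended. Dbh, the enzyme that makes noradrenaline from dopamine, had 2284, 2400 and 2646 in TG tamoxifen against 3546, 5056 and 5726 in TG vehicle, without overlap. It fell by 0.90 ± 0.24 (adjusted p = 0.0205), but the call was lost without any of 4 single arrays (adjusted p 0.059 to 0.07): TG tamoxifen 1 or 2, or TG vehicle 2 or 3. In NTG tamoxifen against NTG vehicle Dbh stood at -0.11 ± 0.24 (adjusted p = 0.817). Sult1a1, a sulfotransferase, fell by 1.30 ± 0.38 in TG tamoxifen (adjusted p = 0.0286) and lost the call without any of 4 single arrays (up to 0.104). Slc6a2, the noradrenaline transporter, stood at -0.09 ± 0.34 in TG tamoxifen against TG vehicle (adjusted p = 0.876), while its 3 other probe sets stood at 0.62, 0.70 and 0.94. Th, which makes the precursor of dopamine, lay below the filter, at 371 to 907 in TG tamoxifen and 611 to 795 in TG vehicle. Ddc, the next enzyme, also lay below it. Summed fibroblast marker intensities moved with this group, at 138613 to 153101 in TG tamoxifen against 204651 to 223771 in TG vehicle, and their part in these falls was not tested.

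**Figure D3:**
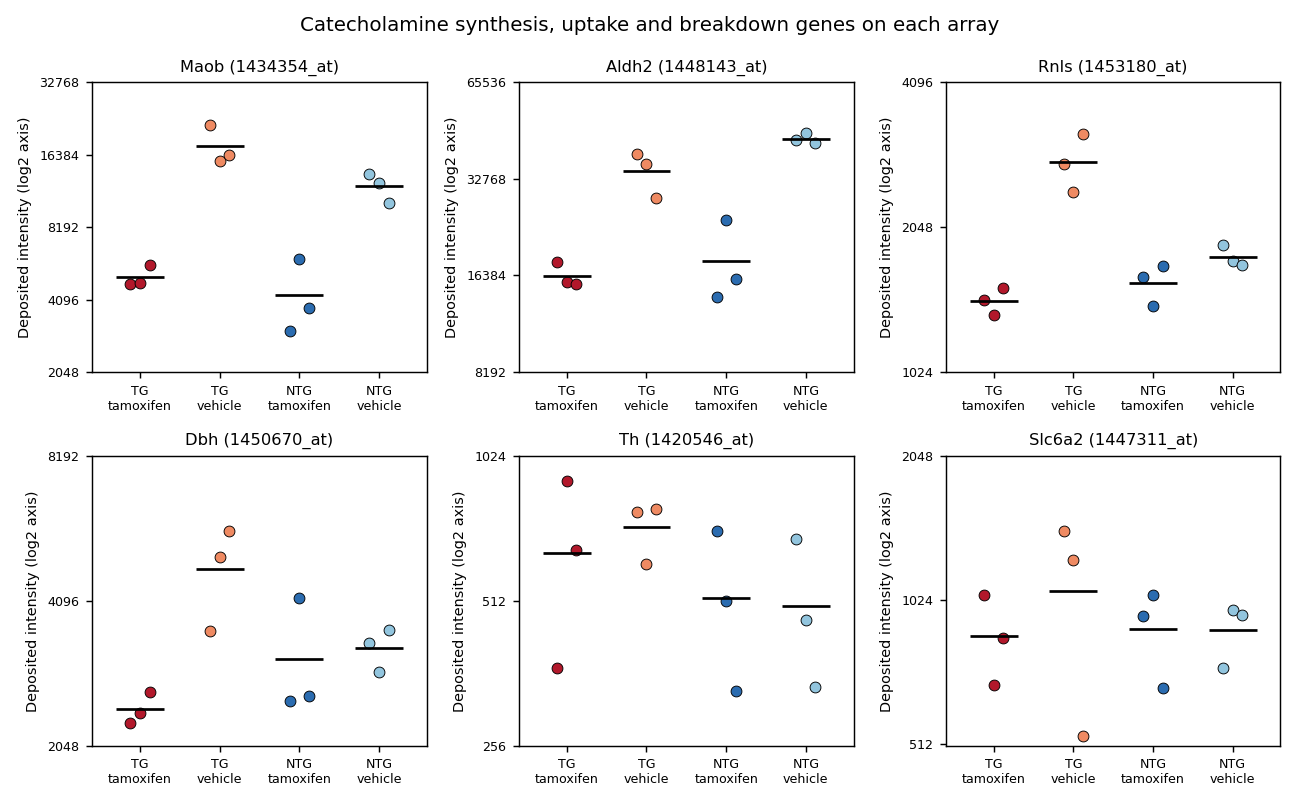
Deposited intensity (log2 axis) of Maob, Aldh2, Rnls, Dbh, Th and Slc6a2 on the 12 arrays, with 1 point per mouse and a line at the arithmetic mean of the group. Maob is at 6055 or less in both tamoxifen groups and at 10310 or more in both vehicle groups, while Slc6a2 overlaps between all groups.

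Of 23 tested G protein and adenylyl cyclase genes, 3 rose and 5 fell in TG tamoxifen against TG vehicle, or 34.8% against 24.8% of all genes. Adcy3, an adenylyl cyclase, had 804, 978 and 1049 in TG tamoxifen against 1998, 2334 and 1894 in TG vehicle and fell by 1.04 ± 0.17 (adjusted p = 0.00274), while its other probe sets stood at -1.38, -0.27 and -0.22. Gnb5, a G protein beta subunit that pairs with some RGS proteins, fell by 0.96 ± 0.21 (adjusted p = 0.00819). Both calls held without any 1 array. Gnai3, an inhibitory alpha subunit, rose by 0.87 ± 0.21 (adjusted p = 0.0145), with 0.0557 without TG tamoxifen 1 and 0.0546 without TG vehicle 2. Gnas, which encodes Gs alpha, fell by 0.53 ± 0.16 (adjusted p = 0.0313), a call that 5 of 12 single omissions ended. Gnb1 rose by 1.20 ± 0.32 through its brightest probe set (adjusted p = 0.0189), while its other probe sets stood at -1.52 and -0.32. Adcy5 and Adcy6 are the main cyclases of heart muscle, and they ran opposite ways in TG tamoxifen against TG vehicle. Adcy5 was lower, at 2515, 2934 and 2430 against 3694, 3971 and 4430, without overlap, as were 24.4% of all genes. Adcy6 rose by 0.59 ± 0.20 (adjusted p = 0.049, lost in 9 of 12 single omissions). Adcy6 was also lower by 1.17 ± 0.20 in TG vehicle than in NTG vehicle (adjusted p = 0.0208, lost in 3). Its NTG vehicle intensities were 11185 to 16722, above TG vehicle at 5153 to 7526. The probe sets of Adcy3 and Gnas may match several transcripts.

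Of 13 tested receptor kinases, arrestins and RGS proteins, which shorten G protein signals, 1 rose in TG tamoxifen against TG vehicle and 1 fell in NTG tamoxifen against NTG vehicle, or 7.69% in each, against 24.8% and 4.32% of all genes. Grk3, like Grk5 a receptor kinase, rose by 0.76 ± 0.25 in TG tamoxifen (adjusted p = 0.0442), a call that 10 of 12 single omissions ended. Against NTG tamoxifen it was higher by 1.32 ± 0.25 (adjusted p = 0.00192), which held without any 1 array and was 1.56 without the array labelled NTG tamoxifen 1. Other probe sets of Grk3 stood at 1.74 and, below the filter, at 2.13 in TG tamoxifen against TG vehicle. In the limma fit over all probe sets, adjusted p was 0.00581 for the first of these and 0.0578 for the probe set standing for Grk3. Rgs5, a marker of pericytes, fell by 1.72 ± 0.30 in NTG tamoxifen (adjusted p = 0.0179), with 39924, 68293 and 26562 in NTG tamoxifen against 131458, 146867 and 140079 in NTG vehicle. Its other probe sets stood at 0.46, 0.12 and -1.21, and 4 single omissions ended the call (up to 0.0786). Rgs12 was lower in TG tamoxifen than in NTG tamoxifen by 1.72 ± 0.22 (adjusted p = 0.000327), Rgs2 by 1.19 ± 0.34 (adjusted p = 0.0168, lost in 3 of 12 single omissions, with a difference of -1.66 without the array labelled NTG tamoxifen 1) and Arrb1, an arrestin, by 0.66 ± 0.22 (adjusted p = 0.0339, lost in 3).

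Of 33 tested genes of protein kinase A, its anchors and the phosphodiesterases, 1 rose and 4 fell in TG tamoxifen against TG vehicle, or 15.2% against 24.8% of all genes. Pde4d, a phosphodiesterase that degrades cyclic AMP near beta-adrenergic receptors, had 2206, 3076 and 3762 in TG tamoxifen against 8211, 8441 and 6987 in TG vehicle. It fell by 1.38 ± 0.29 (adjusted p = 0.00791), which held without any 1 array, and was lower by 1.70 ± 0.29 than in NTG tamoxifen (adjusted p = 0.00123), at -2.07 without the array labelled NTG tamoxifen 1. Pde4a fell by 1.09 ± 0.26 (adjusted p = 0.0129, and 0.0559 without TG tamoxifen 1) and Akap7, an anchor of protein kinase A, by 1.07 ± 0.28 (adjusted p = 0.0181, lost in 3 of 12 single omissions). Akap1, another anchor, fell by 0.68 ± 0.21 (adjusted p = 0.0388, lost in 9 of 12 single omissions). Its other probe set stood at -0.90. In the limma fit over all probe sets, adjusted p was 0.0215 for that one and 0.0524 for the probe set standing for Akap1. Prkaca, the catalytic subunit, rose by 0.70 ± 0.22 through its brighter probe set (adjusted p = 0.0398, lost in 8), while its other probe set stood at 0.37. Crem, a cyclic AMP-responsive transcription factor, was higher in TG tamoxifen than in NTG tamoxifen by 1.03 ± 0.17 (adjusted p = 0.000971). In NTG tamoxifen against NTG vehicle 1 of the 33 fell (3.03% against 4.32% of all genes), Pkia, an inhibitor of protein kinase A (by 0.97 ± 0.22, adjusted p = 0.0345, lost in 8 of 12 single omissions).

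The next list holds genes of phospholipase C, protein kinase C and their kin, of which only a part lie on the Gq side through which Adra1b signals. Of 21 tested, 1 fell in TG tamoxifen against TG vehicle (4.76% against 24.8% of all genes). This was Plcg1, by 0.55 ± 0.19 through its brightest probe set (adjusted p = 0.0481, lost in 9 of 12 single omissions). Its other probe sets stood at 0.005 and -0.03. Prkcz, a protein kinase C, was not called there. It had 16005, 12274 and 11260 in TG tamoxifen against 2207, 5604 and 2755 in TG vehicle. These arrays did not overlap, as was so for 19.8% of all genes in the higher direction. On the array labelled NTG tamoxifen 1 Prkcz was 32747, against 1004 and 1077 on NTG tamoxifen 2 and 3. In NTG tamoxifen against NTG vehicle 2 of the 21 fell (9.52% against 4.32% of all genes). Plcb4, a phospholipase C, fell by 0.82 ± 0.17 (adjusted p = 0.0265, lost in 4) and Dgkz, a diacylglycerol kinase, by 0.60 ± 0.15 (adjusted p = 0.0437, lost in 10). Other probe sets of Plcb4 ran from -1.74 to 1.30. Plcg1 and Prkca were lower and Plcb4 higher in TG tamoxifen than in NTG tamoxifen, Plcg1 by 1.29 ± 0.19 (adjusted p = 0.000535). Gna11, a Gq-family alpha subunit, was lower in that comparison by 1.47 ± 0.27 (adjusted p = 0.00162). The calls of Plcg1 and Gna11 there held without any 1 array.

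**Figure D4:**
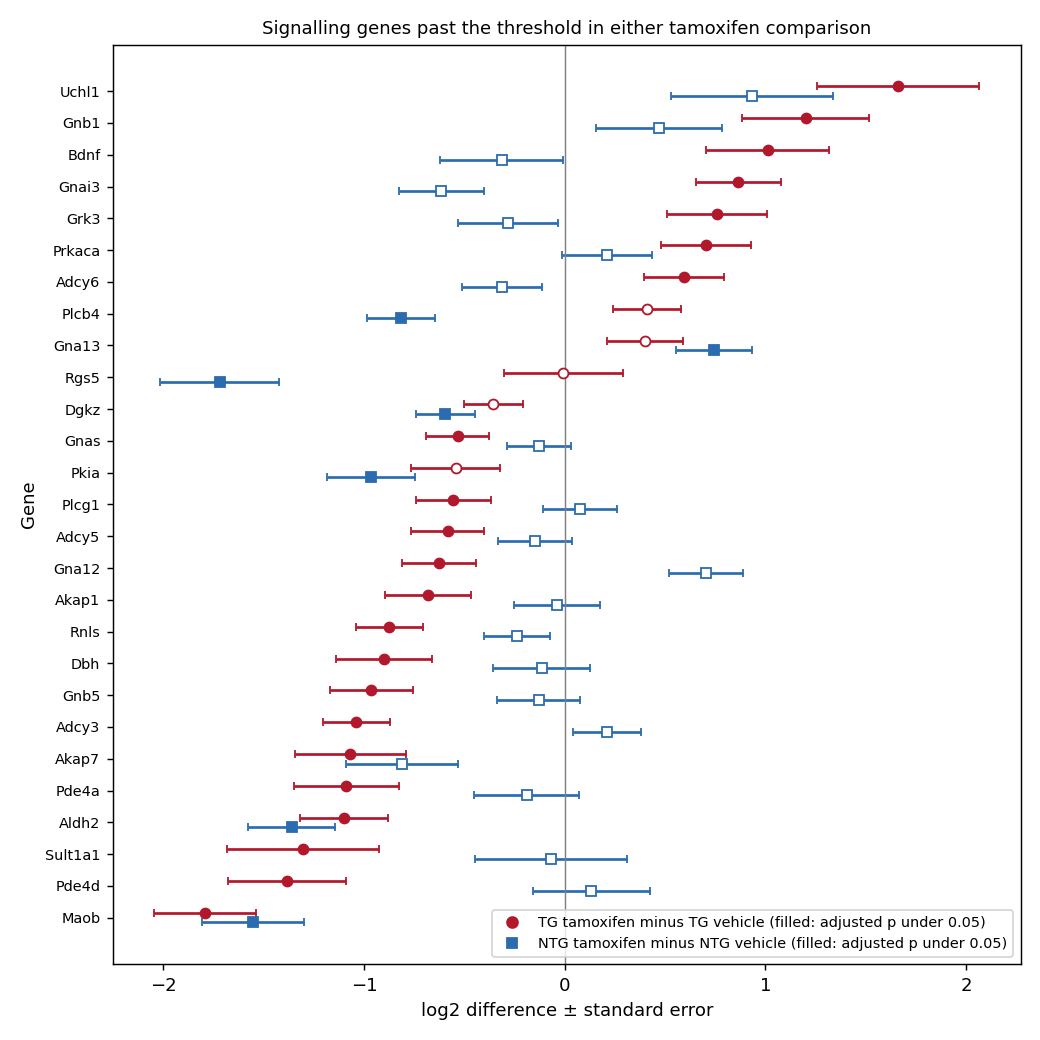
Log2 difference with its standard error for the 27 signalling genes past the threshold in TG tamoxifen against TG vehicle (circles) or NTG tamoxifen against NTG vehicle (squares), with filled symbols where the adjusted p was under 0.05. Maob and Aldh2 are filled in both, Uchl1 stands at 1.66 in TG, and Rgs5 stands at -1.72 in NTG.

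Markers of sympathetic nerves were weak in this tissue. Of 20 markers 18 had a named probe set, 6 passed the filter, and Th, Phox2a, Chga and Gap43 did not. The summed normalised intensity of the 18 was 23170 to 27216 in TG tamoxifen mice, 19250 to 24036 in TG vehicle mice, 25116 to 27600 in NTG tamoxifen mice, and 19900 to 21883 in NTG vehicle mice. That sum was higher without overlap in NTG tamoxifen than in NTG vehicle, and it overlapped between TG vehicle and NTG vehicle. Npy was higher in both comparisons. Hand2, which cardiac cells also express, is part of the sum. It had 12064, 13041 and 14590 in NTG tamoxifen against 7307, 9449 and 10014 in NTG vehicle. Of the 6 tested markers, 0 were called in that comparison, with a median log2 difference of -0.06. The sum was not taken without Hand2, and the part of the sum in the Npy differences was not tested. Of the 6 markers tested in TG tamoxifen against TG vehicle, 1 rose and 1 fell, with a median log2 difference of -0.04 against -0.07 over all genes. The one that fell was Dbh, described above. Stmn2, a neuronal protein that binds tubulin, had 832, 985 and 1185 in TG tamoxifen against 1359, 2164 and 1505 in TG vehicle, a difference of -0.62 ± 0.22 (adjusted p = 0.0605). Uchl1, a neuronal ubiquitin hydrolase, rose by 1.66 ± 0.40 in TG tamoxifen against TG vehicle (adjusted p = 0.0137), with 3616, 3707 and 4209 in TG tamoxifen against 1017, 1298 and 1487 in TG vehicle, and the call held without any 1 array. On the array labelled NTG tamoxifen 1 it was 3497, against 1091 and 978 on NTG tamoxifen 2 and 3. Hand2 had a deposited intensity of 7262 or more on each array and was lower in TG tamoxifen than in NTG tamoxifen by 0.74 ± 0.18 (adjusted p = 0.00646). Among 4 tested nerve growth factors and their kin, Bdnf rose by 1.01 ± 0.31 in TG tamoxifen against TG vehicle (adjusted p = 0.0339), lost in 4 of 12 single omissions.

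Markers of several other cell types, but not of all, moved with the groups in which the members differed. The summed intensity of 6 endothelial markers was 28769 to 31712 in TG tamoxifen against 37754 to 48735 in TG vehicle. That of 7 macrophage markers was 91476 to 140797 in TG tamoxifen against 44063 to 44793 in NTG tamoxifen, but overlapped with TG vehicle at 51405 to 103093. That of 8 cardiomyocyte markers was 2265791 to 2313911 in TG tamoxifen against 2483845 to 2531433 in TG vehicle. That of 4 adipocyte markers was 5528 to 6226 in TG tamoxifen against 10292 to 15922 in TG vehicle and 8869 to 18144 in NTG tamoxifen. The adipocyte sum rests mainly on 1 gene, Cidea, with a mean of 13.29 log2 units. Adipoq, Cidec and Lep lay below the filter, at 7.75, 7.61 and 6.73. The summed intensity of 4 Schwann cell markers was 3692 to 4556 in TG tamoxifen against 4800 to 6016 in TG vehicle and 4995 to 5237 in NTG tamoxifen. In NTG tamoxifen against NTG vehicle, where Npy, Grk5, Maob and Rgs5 differed, the endothelial sum was 31526 to 38633 against 45451 to 48855. The sum of 4 atrial markers overlapped between TG tamoxifen and TG vehicle, at 84419 to 184878 against 32317 to 95823. That of 5 smooth muscle markers also overlapped there, at 39324 to 74581 against 23234 to 69359. The smooth muscle sum was 53432 to 59561 in NTG tamoxifen against 61163 to 109466 in NTG vehicle. The part of these markers in the differences was not tested.

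By the root mean square difference of centred log2 values over the 12 arrays, the tested genes most like Npy were Exoc3l2 (0.639), Xab2 (0.652) and Sftpc (0.694). Exoc3l2 had group means of 8.93 in TG tamoxifen mice, 11.05 in TG vehicle mice, 10.49 in NTG tamoxifen mice, and 9.12 in NTG vehicle mice. Those most like Adra1b were Zfp691 (0.359), Zfp296 (0.381) and Slc35c1 (0.397). Those most like Grk5 were Psme3 (0.137), Rap1b (0.144) and Prr13 (0.148), a closer likeness than any gene had to Npy. The group means of Maoa spanned 0.55 log2 units, under the 1 unit set for this search.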

How the data were processed

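The authors deposited 1 intensity per probe set and array, on a linear scale. Trimmed by 2% at each end, the 12 arrays had 1 common mean, so the authors had scaled the deposited intensities per array. The sources used here do not name the summarisation software, and detection calls were not used. Intensities were taken as log2(value + 16) and quantile-normalised, so a fold change understates that of dim genes. Marker sums add up these normalised values, returned to the linear scale with the 16 taken off. Probe sets were named through the platform annotation where it gave 1 symbol (34945 of 45101). The probe set with the highest mean stood for a gene, and genes below the 50th percentile of probe sets (an intensity of 670.3) were left out, which left 11166 of 18193. Differences were tested in R 4.3.3 with limma 3.58.1 (two-sided, lmFit then eBayes). The 12 arrays entered 1 model with a mean per group and 8 residual degrees of freedom, and the Benjamini-Hochberg adjustment ran over all genes tested (threshold 0.05). Probe sets other than those standing for a gene were fitted in the same way over all probe sets. The fit was tested on simulated data. The number of arrays limits the precision.

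The members and gene lists were chosen with earlier results of these data known. Of each list, up to 6 genes past the threshold per comparison were named, and the neuropeptide Y genes, the adrenergic receptors and Th, Dbh, Ddc, Slc6a2 and Maob in any case. Adcy5, Prkcz and Stmn2 were named outside this rule. Genes named by their likeness had the smallest root mean square difference. Promoter windows and gene starts are from RefSeq (GRCm38.p6). Alternatives were other scalings, offsets, filters, ways to pick probe sets, covariates, array weights, groupings and leaving out each array.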

Additional observations from a re-analysis of the deposited data

Results flagged for a closer look

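The effect of tamoxifen differed between TG and NTG mice for Npy and 9 signalling genes. For Npy the log2 effect was -1.25 in TG and 2.07 in NTG, a difference of -3.33 ± 0.66 that is a description, since Npy was chosen with these arrays in view. The other 9 passed limma's test of the difference between the 2 effects, with 3 mice per group.

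In 4 of them the estimated effects had opposite signs and the call held without any 1 of the 12 arrays, but not under every alternative. None of the 4 was called in both TG and NTG, so the opposite signs rest on estimates and only the difference was tested. Gnai3 differed by 1.48 ± 0.30 (0.87 in TG and -0.61 in NTG, adjusted p = 0.014), Gna12 by -1.33 ± 0.26 (-0.63 in TG and 0.71 in NTG, adjusted p = 0.013), Adcy3 by -1.25 ± 0.24 (-1.04 in TG and 0.21 in NTG, adjusted p = 0.0123) and Plcb4 by 1.23 ± 0.24 (0.41 in TG and -0.82 in NTG, adjusted p = 0.013). All 4 calls were lost with the beta-actin ratio as a covariate, when TG vehicle 3 was moved to the tamoxifen group, and when the pair of arrays whose labels conflict was left out (adjusted p up to 0.767 for Gnai3, 0.727 for Gna12, 0.541 for Adcy3 and 0.732 for Plcb4). Those of Gna12 and Plcb4 were also lost with the mean of probe sets, and that of Gnai3 with no filter. All 4 genes have other probe sets. Those of Gna12 stood at -0.71, -1.42, -0.15 and -0.33 in TG. In NTG they stood at 1.11, 0.90, -0.53 and -0.30, in the same order, and the last pair lay below the filter. Those of Plcb4 did not run the same way.

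In the other 5 the call was lost without 1 of several single arrays. Rgs5 differed by 1.71 ± 0.42 (adjusted p = 0.0236, lost in 5 of 12 single omissions), Gng2 by 1.51 ± 0.45 (adjusted p = 0.0452, lost in 10), Pde4d by -1.52 ± 0.42 (adjusted p = 0.034, lost in 9), Rgs4 by -1.10 ± 0.33 (adjusted p = 0.0467, lost in 10) and Rgs12 by -1.07 ± 0.30 (adjusted p = 0.0393, lost in 9).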

How the results depend on the processing

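Counts of called genes are given below for TG tamoxifen against TG vehicle (A), NTG tamoxifen against NTG vehicle (B), TG vehicle against NTG vehicle (C), TG tamoxifen against NTG tamoxifen (D) and the difference between the tamoxifen effects (E). Of the 111 signalling genes limma called 22 in A, 7 in B, 3 in C, 32 in D and 9 in E. With no filter it called 9 in A, 0 in B and C and 3 in E. With the 25th percentile filter it called 13 in A, 4 in B, 1 in C and 5 in E. With the mean of a gene's probe sets it called 12 in A, 1 in B, 5 in C and 4 in E. With the beta-actin ratio as a covariate it called 0 in A, B, C and E. With TG vehicle 3 grouped as tamoxifen it called 0 in A, C and E and 2 in B. Without both arrays with conflicting labels it called 5 in A, 2 in B and 0 in C and E. Array weights gave 12 in B and in C and 22 in E, and a fit on only the groups compared gave 0 in B and C. In D the count stayed within 1.5 times of 32 under every alternative. Leaving out 1 array gave 8 to 32 in A, 0 to 10 in B, 0 to 7 in C, 24 to 45 in D and 4 to 22 in E. Where 0 were called, 8 to 29 had an unadjusted p under 0.05. Median centring changed the split of higher and lower from 7 and 15 to 14 and 11 in A, from 1 and 6 to 0 and 8 in B, from 1 and 2 to 0 and 3 in C, from 11 and 21 to 13 and 15 in D and from 4 and 5 to 9 and 2 in E. It moved the median of all genes from -0.07 to 0.03 in A, -0.01 to -0.16 in B, 0.01 to -0.11 in C, -0.06 to 0.06 in D and -0.07 to 0.18 in E.

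Of the 4 measured members, 1 was called in A, B, C and E and 2 in D. The deposited scaling gave 2 in A. No filter and the 25th percentile filter each gave 0 in B and C and 1 in D. The mean of probe sets gave 1 in D. The beta-actin covariate gave 0 in A, B, C and E and 1 in D. TG vehicle 3 grouped as tamoxifen gave 0 in all 5. Without both arrays with conflicting labels the count was 0 in B, C and E and 1 in D. Array weights gave 0 in B and 1 in D, and a fit on only the groups compared gave 1 in D. Leaving out 1 array gave 1 to 2 in A, 0 to 2 in B, 0 to 1 in C, 0 to 2 in D and 1 in E. Npy lost its call in B without TG tamoxifen 1, NTG tamoxifen 3, the array labelled NTG tamoxifen 1 or any NTG vehicle array. In C it lost the call without TG tamoxifen 1, TG vehicle 2 or 3, or any NTG vehicle array, and in D Grk5 and Adra1b both lost it without NTG tamoxifen 2 or 3. In D Grk5 also lost it without TG tamoxifen 1 or 3, and Adra1b without TG tamoxifen 2, TG vehicle 2, NTG vehicle 2 or the array labelled NTG tamoxifen 1. Of 516 alternative values of the members' log2 differences 495 moved by less than 1 SD and 21 by more, among them Grk5 and Maoa in C, which stood at -0.22 and -0.50 with the beta-actin covariate.

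The replicate numbers did not pair the mice: deviations from the group means correlated between same-numbered arrays at -0.05 to 0.09. With the replicate block, 0 members and 3 signalling genes were called in B, 0 and 1 in C, and 1 member in D. With the mean of probe sets, the log2 difference turned for Gnb1 in A to -0.21, for Plcb4 in B to 0.0406, and in D for Gna13 to 0.0016 and for Prkca to 0.27. Of 1753 values for named signalling genes under the alternatives, 1282 kept their direction and side of the threshold, 467 lost the call and 4 reversed. The causes were not tested. Detection calls were not used here, so dim probe sets were limited only by the filter.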
